A study of Mus musculus with 12 samples.

Results

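The glycolysis and hypoxia response genes described here are 38 symbols, and they were found in the deposited count table by their gene names. They took 39 of its 54532 rows, because Aldoa occurs as a pair of rows with different identifiers, and all 39 rows were among the 16038 genes that had enough counts to be tested. The set was divided by role into 23 rows of glycolytic enzymes and transporters (22 symbols) and 16 rows of other genes of the type that hypoxia-inducible factor (HIF) switches on. The cells were C2C12, an established mouse line of skeletal muscle precursors, and the titles of the samples call them myoblasts. Dishes at 100% confluency had received perfluorooctanesulfonate (PFOS), a persistent fluorinated surfactant, at 0, 2 or 6 µM, and RNA was taken with TRIzol after 24 h. The dish, the confluency and the time were shared by all 3 doses, so PFOS was the only labelled difference. Messenger RNA was sequenced from 4 libraries a dose, 12 in all, and the labels name no transgene and no other agent. The labels do not state whether libraries sharing a dose were grown as separate cultures, so the p-values capture no more than the spread among these samples, and that spread may be technical.

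Glycolysis turns glucose into pyruvate in the cytoplasm and yields ATP without oxygen, and proliferating muscle precursors run it at a high rate. HIF is a pair of proteins of which the alpha subunit is marked by prolyl hydroxylases when oxygen is present and is then degraded, so that HIF activity is mainly set by the stability of the protein and not by the level of its RNA. Stabilized HIF raises transcription of most glycolytic enzymes, of glucose and lactate transporters, and of genes for blood vessel growth, mitophagy, collagen maturation and the hydroxylases that mark it for degradation.

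The total of gene counts was 30206155 to 45644739 per library at 0 µM, 39837059 to 50351082 at 2 µM and 39794974 to 44669988 at 6 µM. Levels are given in CPM, the count of a gene scaled to a common library total after correction for composition, and a fold change is called where its p-value from edgeR's quasi-likelihood test, adjusted over all tested genes, was under 0.05. The 3 libraries furthest from their own dose's mean profile were 6 µM replicates 2 and 3 and 0 µM replicate 1. All 6 myoblast markers had enough counts to be tested and summed to 602 to 710 CPM over the 12 libraries. Markers of differentiated myotubes summed to 50.2 to 69.3 CPM at 0 µM, 36 to 50.7 CPM at 2 µM and 33 to 39.2 CPM at 6 µM. Of the 7 tested myotube markers 1 fell at 2 µM (Mylpf) and 4 fell at 6 µM, and the myoblast markers Myod1 and Cdh15 also fell at 6 µM. The Mylpf call ended without 0 µM replicate 2 or 4 or 2 µM replicate 2, 3 or 4 (adjusted p up to 0.103), and the Cdh15 call without any 1 of 7 libraries (up to 0.155). None of the 6 leukocyte markers reached the test, with sums of at most 0.339 CPM, and the adipocyte marker Adipoq and the fibroblast marker Tcf21 were at 0 in every library. Fibroblast markers, mainly Col1a1, summed to 3650 to 5060 CPM, with 3 of 6 tested and no call. Of 5 adipocyte and 5 endothelial markers 1 each was tested, and Fabp4, the adipocyte one, rose at 6 µM from 5.80 to 7.99 CPM (adjusted p = 0.0385). That call was lost without 0 µM replicate 2, 3 or 4 or 6 µM replicate 1, 2 or 3, with limma-voom, with the replicate block and without the 3 most deviating libraries (adjusted p up to 0.377). In bulk RNA, fewer cells of a type and less RNA per cell cannot be told apart.

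Small increases under PFOS were spread over both groups, and edgeR called no member lower, while DESeq2 called Aldoc lower at 2 µM. At 2 µM against 0 µM, 5 of 23 glycolytic rows and 4 of 16 HIF-type rows rose. Of all tested genes 1.61% rose and 0.742% fell in that comparison (258 and 119 genes, or 184 and 134 under upper-quartile scaling). At 6 µM against 0 µM, 8 of 23 glycolytic rows and 7 of 16 HIF-type rows rose, whereas 4.58% of all tested genes rose and 3.66% fell (735 and 587 genes, or 598 and 662 under upper-quartile scaling). Between 6 µM and 2 µM edgeR called no member, against 0.561% of all tested genes higher and 0.549% lower. DESeq2 called 2 glycolytic rows higher there, beside 229 of all the genes it tested. With edgeR's unadjusted p under 0.05 there were 4 members higher and 1 lower, beside 922 and 1085 of the 16038 tested genes. Of the members 35 of 39 had a mean of at least 10 CPM. Among the 9386 genes at that level, chosen as a second background after the values were seen, 2.61% rose and 1.07% fell at 2 µM, and 7.31% rose and 4.65% fell at 6 µM. Between 6 and 2 µM 0.852% of them were higher and 0.82% lower.

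At 2 µM the median log2 fold change of the HIF-type genes was 0.16, against 0.06 for the glycolytic rows and -0.011 for all tested genes. At 6 µM the medians lay closer together, at 0.16 for HIF-type genes, 0.12 for glycolytic rows and -0.016 for all tested genes. The 15 HIF-type genes above 0 on the log2 scale at 2 µM, and 15 at 6 µM, compare with 16 and 19 of the 23 glycolytic rows. The glycolytic median moved with single 0 µM libraries, to 0.0227 at 2 µM and 0.0787 at 6 µM without replicate 1 and to 0.0903 at 2 µM without replicate 4. Without the 3 most deviating libraries the glycolytic median was 0.0242 at 2 µM and 0.0784 at 6 µM, and the HIF-type median 0.134 and 0.166. The HIF-type median was 0.133 and 0.136 without 0 µM replicate 1, and 0.197 at 6 µM without 6 µM replicate 2. Both PFOS doses were compared with the same 0 µM libraries, so these pairs of values are not independent. The difference between the groups was described and not tested, because genes of a list are not replicates.

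**Figure D1:**
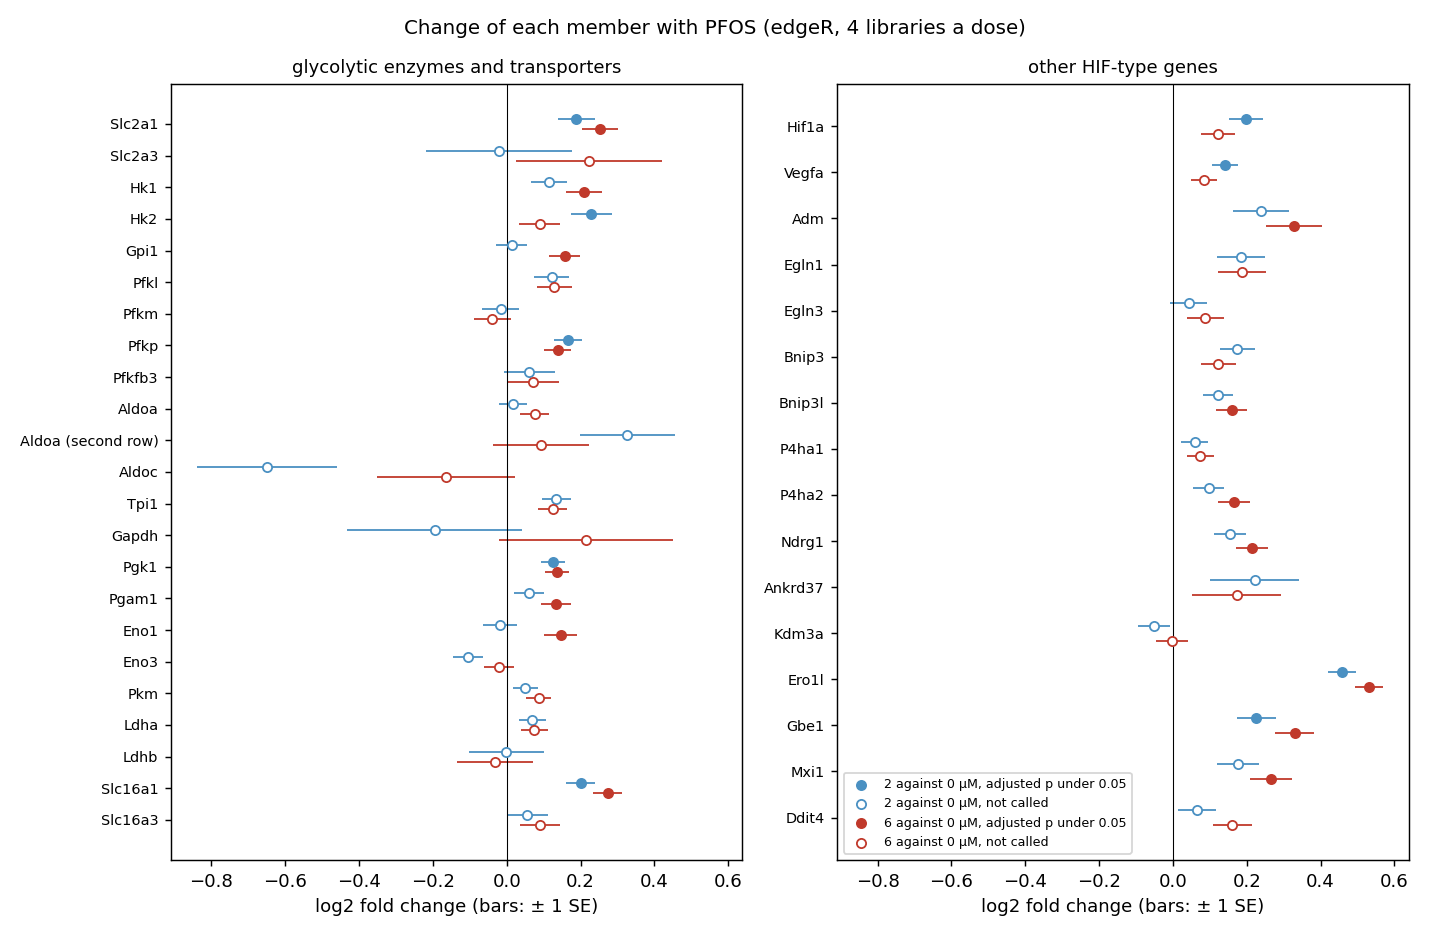
Log2 fold change (x axis) of each member (y axis) at 2 µM (blue) and 6 µM (red) against 0 µM, with 4 libraries a dose and bars of 1 standard error; filled dots have an edgeR adjusted p under 0.05. Every filled dot lies to the right of 0, Ero1l lies furthest right at 0.46 and 0.53, and the lone large negative value is Aldoc at 2 µM (-0.65), which was not called.

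The plot of log2 fold changes shows that the calls were small apart from Ero1l. Called changes ran from 0.12 (Pgk1 at 2 µM) to 0.53 (Ero1l at 6 µM) on the log2 scale. Over both doses 18 members were called in at least 1 comparison: 6 at both doses, 3 at 2 µM only and 9 at 6 µM only. All tested genes were counted per comparison and not over comparisons together, so this split has no background beside it. A call at 1 dose does not show a difference between doses, since no member was called between 6 µM and 2 µM. The dose means rose in the order 0, 2, 6 µM in 11 of 16 HIF-type genes and 12 of 23 glycolytic rows, and in 19.4% of all tested genes.

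Some of these counts changed when single libraries were left out, and they have no count over all tested genes beside them. Without 2 µM replicate 4 the log2 fold changes at 2 µM were 0.1209 in Pgk1, 0.1706 in Slc2a1, 0.1834 in Hk2 and 0.1568 in Pfkp. With all libraries they were 0.1248, 0.1888, 0.2286 and 0.1656. The 5 glycolytic calls at 2 µM fell to 1 without 2 µM replicate 4, to 2 without 0 µM replicate 1 or 3, and to 3 without 0 µM replicate 2, 2 µM replicate 1 or 2, or 6 µM replicate 1 or 4. The 4 HIF-type calls at 2 µM fell to 1 without 2 µM replicate 2 or 4 and to 2 without 0 µM replicate 3. The 8 glycolytic calls at 6 µM fell to 4 without 0 µM replicate 1, 6 µM replicate 1 or 6 µM replicate 3, and to 5 without 0 µM replicate 3. They fell to 3 without the 3 most deviating libraries together. Under 21 alternatives of scaling, filter, tool and libraries, Ero1l and Slc16a1 kept their calls at both doses, and Pgk1, Slc2a1, Ndrg1, Gbe1, Mxi1 and Adm kept theirs at 6 µM.

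As a share of all counts, the 23 glycolytic rows took 2.05% ± 0.090 (SD, n = 4) at 0 µM, 2.1% ± 0.047 at 2 µM and 2.16% ± 0.063 at 6 µM. The 0 µM range of 1.93 to 2.14% overlapped those of 2 µM (2.04 to 2.15%) and 6 µM (2.07 to 2.22%). The 16 HIF-type genes took 0.684% ± 0.013 at 0 µM, 0.785% ± 0.026 at 2 µM and 0.804% ± 0.020 at 6 µM. Every 0 µM library (0.671 to 0.7%) lay below every library of 2 µM (0.753 to 0.815%) and 6 µM (0.781 to 0.824%), while the ranges of both PFOS doses overlapped. Ero1l was the most counted of these 16 genes at every dose. Without it, in a sum added after the values were seen, the other 15 took 0.465 to 0.493% at 0 µM, 0.49 to 0.525% at 2 µM and 0.5 to 0.531% at 6 µM, so 2 µM overlapped 0 µM and 6 µM did not.

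The members differed by orders of magnitude in level. Dividing CPM by the length of the gene model in the deposited table gives CPM per kilobase, the scale on which genes are compared here. Gene models exceed the longest coding transcript by differing amounts, with 13401 against 4145 bases in Pfkp and 5969 against 5513 in Hk2. The order of the genes therefore depends on that length, and in CPM Pkm stood above Pgk1. At 0 µM the highest were Pgk1 at a mean of 1266 CPM per kilobase, Pkm at 973, Ldha at 791, Tpi1 at 634, Pgam1 at 611 and Aldoa at 529. The libraries of Tpi1 (603 to 664) and Pgam1 (556 to 636) overlapped, and so did those of Ero1l (366.6 to 391.5), Ddit4 (323 to 374) and Eno1 (308 to 372), which came next. Apart from Ero1l, Ddit4 and P4ha1 (144), no HIF-type gene exceeded the 140 CPM per kilobase of Ndrg1. The lowest were the glycolytic rows of Slc2a3 (0.581) and Aldoc (1.42), with Pfkfb3 at 4.53 and the HIF-type gene Ankrd37 at 5.49.

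**Figure D2:**
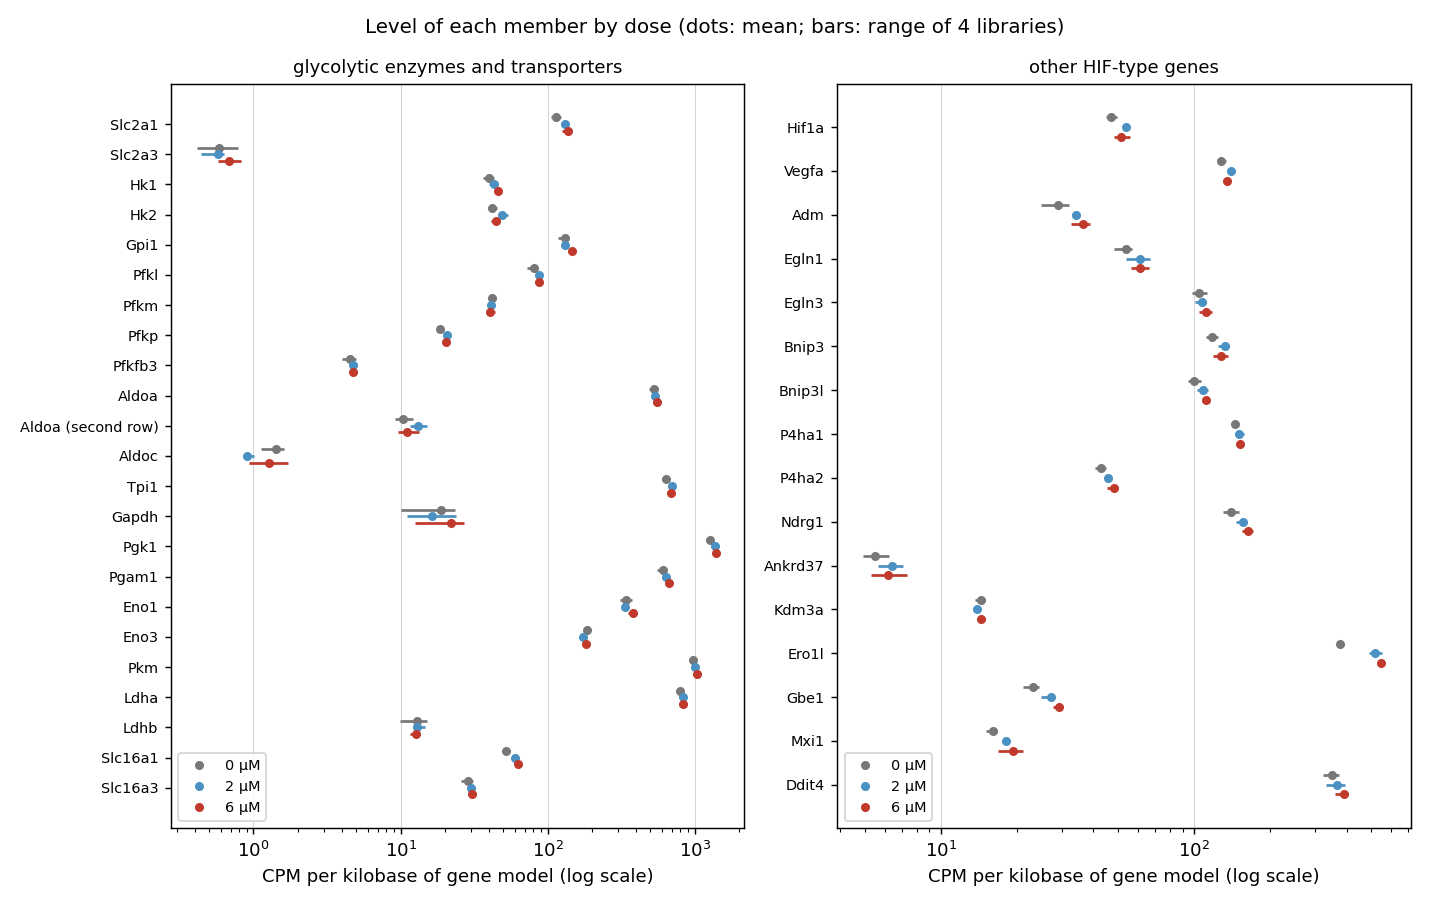
CPM per kilobase of gene model (x axis, log scale) of each member (y axis) at 0 µM (grey), 2 µM (blue) and 6 µM (red); dots are means and bars the range of 4 libraries. Mean levels at 0 µM run from 0.581 (Slc2a3) to 1266 (Pgk1), and the doses lie close together beside that range. Ero1l and Slc16a1 are among the members whose 0 µM range lies below both PFOS doses, as do Pgk1, Pfkp, Gbe1, Adm and Mxi1. Gapdh is the most scattered.

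The plot of levels shows that at several steps 1 member held nearly all RNA of the members of its family, and such shares are among the members only. Slc2a1 held 99.5% ± 0.13 (SD, n = 4) of the RNA of the pair of glucose transporters at 0 µM per kilobase, Aldoa (ENSMUSG00000030695) 99.7% ± 0.036 of its pair with Aldoc and Ldha 98.4% ± 0.25 of its pair with Ldhb. Hk1 and Hk2 were nearly even per kilobase, with Hk1 at 48.8% ± 0.81 at 0 µM, 46.9% ± 1.8 at 2 µM and 51% ± 1.1 at 6 µM. Without division by length Hk1 held 57.7% ± 0.795, 55.8% ± 1.75 and 59.8% ± 1.04. Pfkl held 57.2% ± 1.5 of the phosphofructokinases at 0 µM, Pfkm 29.7% ± 1.2 and Pfkp 13.1% ± 0.44. Without division by length Pfkl held 58.1% ± 1.32, but the other forms changed order, with Pfkp at 26.8% ± 0.855 and Pfkm at 15.1% ± 0.695. Slc16a1 held 64.3% ± 2.3 of the pair of lactate transporters at 0 µM and 67.1% ± 0.79 at 6 µM, with overlapping ranges.

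Among 10 families of 2 or 3 members, the leading gene's share did not overlap between 2 µM and 0 µM in 1 (Aldoa), between 6 µM and 0 µM in 1 (Eno1) and between 6 µM and 2 µM in 2 (Hk2 and Bnip3). Aldoc, the lesser gene beside Aldoa, held 0.215 to 0.296% of the pair at 0 µM and 0.161 to 0.188% at 2 µM. Eno1 held 62.7 to 65.7% of the RNA of Eno1 and Eno3 at 0 µM and 66 to 68.1% at 6 µM, and many of its sequence stretches also occur in other genes. Hk2 held 51.3 to 54.8% of the RNA of Hk1 and Hk2 at 2 µM and 47.6 to 50.2% at 6 µM. Bnip3 held 54.8 to 55.3% and 51.8 to 54.3% of its pair with Bnip3l. Hk2 and Bnip3 led their pairs per kilobase only. Without division by length Hk1 (57.7% at 0 µM) and Bnip3l (59.1%) led. Shares were taken among the members only, so these counts of families have no background of shares. The CPM of single genes is a different measure. By it, 2 and 0 µM were set apart in 4.77% of all tested genes upwards and 3.6% downwards. The percentages were 6.39 and 6.15 between 6 and 0 µM, and 4.45 and 4.15 between both PFOS doses. Whether the families differ from such a background was not tested. Leaving out a library can only narrow a range, so the counts of 1 against 0 µM could stay or rise but not fall. Without 0 µM replicate 1 they were 3 at 2 µM and 2 at 6 µM, without replicate 2 they were 2 and 2, and without replicate 3 they were 2 and 3. At 6 µM the count was also 3 without 0 µM replicate 4 and 2 without 6 µM replicate 3.

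The short sequence that HIF binds was frequent in promoters of the members. Windows of 250 bases before annotated start sites were taken from RefSeq on GRCm38.p6, and they matched 35 of the 38 symbols with 52 windows. Slc2a3, Bnip3l and Ndrg1 had none. The core searched was ACGTG or GCGTG on either strand, and where a match reads CACGTG both strands match in overlap. It was found in 19 of 21 glycolytic genes (90.5%), in 13 of 14 HIF-type genes (92.9%) and in 41.5% of all 27025 genes with a window. Per window the shares were 81.8%, 73.7% and 38.6%. Member windows were richer in G and C, with a median of 61% against 52.4%, and held a median of 14 CpG against 6, and their part in the difference was not tested. Of the 13 symbols that rose at 6 µM and had a window 11 held a core, and so did 21 of the 22 that were not called. A C/EBP-ATF composite core and a PPAR direct repeat were also searched. Each was found in 0 of 21 glycolytic and 0 of 14 HIF-type genes, beside 3.91% and 0.0407% of all genes with a window.

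Windows of 5 genes are printed to show how differently such cores are spaced in members that rose and in 1 that was not called. Ero1l and Slc16a1 had the 2 lowest adjusted p-values of the set at 6 µM, and Pgk1 had the highest level per kilobase of gene model. Gbe1 rose without a core, and Ldha had 5 matches without a call. Each reads 5′ to 3′ on the gene's own strand and ends at the base before the start site, with the cores in capitals. A match describes letters only, and each CACGTG is counted on both strands, as in Slc16a1 and Ldha. The Ero1l window lies at chr14:45318573-45318822 on the minus strand and overlaps an exon of a transcript that GENCODE M21 marks for nonsense-mediated decay, and it holds 3 cores. Slc16a1 lies at chr3:104638414-104638663 on the plus strand with 4 matches, and Pgk1 at chrX:106186850-106187099 on the plus strand with 2. Gbe1 lies at chr16:70313699-70313948 on the plus strand with 0, and Ldha at chr7:46845554-46845803 on the plus strand with 5.
Ero1l: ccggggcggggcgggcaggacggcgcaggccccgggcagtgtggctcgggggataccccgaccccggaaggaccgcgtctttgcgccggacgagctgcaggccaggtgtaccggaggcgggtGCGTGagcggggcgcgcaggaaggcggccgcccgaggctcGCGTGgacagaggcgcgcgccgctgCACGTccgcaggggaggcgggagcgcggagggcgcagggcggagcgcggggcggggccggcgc
Slc16a1: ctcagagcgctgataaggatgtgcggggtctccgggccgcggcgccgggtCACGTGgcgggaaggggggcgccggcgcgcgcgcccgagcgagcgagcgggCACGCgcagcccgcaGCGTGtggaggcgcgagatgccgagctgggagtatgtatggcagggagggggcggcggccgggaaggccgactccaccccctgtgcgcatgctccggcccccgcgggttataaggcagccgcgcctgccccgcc
Pgk1: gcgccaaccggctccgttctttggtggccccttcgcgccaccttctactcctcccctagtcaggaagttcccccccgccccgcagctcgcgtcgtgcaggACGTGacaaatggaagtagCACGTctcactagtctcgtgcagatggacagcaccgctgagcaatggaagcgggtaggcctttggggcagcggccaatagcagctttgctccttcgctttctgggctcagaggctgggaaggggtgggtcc
Gbe1: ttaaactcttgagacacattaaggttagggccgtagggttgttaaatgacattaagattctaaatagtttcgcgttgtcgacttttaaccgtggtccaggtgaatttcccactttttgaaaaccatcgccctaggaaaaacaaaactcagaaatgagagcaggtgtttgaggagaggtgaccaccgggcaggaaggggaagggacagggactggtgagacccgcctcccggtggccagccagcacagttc
Ldha: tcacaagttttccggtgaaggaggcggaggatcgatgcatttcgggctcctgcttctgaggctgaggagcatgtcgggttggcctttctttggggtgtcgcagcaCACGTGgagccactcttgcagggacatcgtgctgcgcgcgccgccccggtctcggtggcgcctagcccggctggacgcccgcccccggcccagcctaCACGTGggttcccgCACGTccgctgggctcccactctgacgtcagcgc

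Slc2a1 (chr4:119108711-119137983), which encodes the main glucose carrier of proliferating cells, rose at both doses. Its libraries read 371, 407, 398 and 432 CPM at 0 µM, 464, 462, 430 and 476 at 2 µM, and 498, 438, 501 and 478 at 6 µM. The 6 µM libraries all lay above 0 µM, while at 2 µM the lowest library fell just under the highest at 0 µM. The log2 fold change was 0.19 (SE 0.049, adjusted p = 0.0435) at 2 µM and 0.25 (SE 0.049, adjusted p = 0.00211) at 6 µM. The call at 2 µM was lost without any 1 of 9 libraries, all but 0 µM replicate 4, 2 µM replicate 3 and 6 µM replicate 2, with adjusted p from 0.0518 to 0.175. It was also lost with upper-quartile factors (0.0701), the replicate block (0.0647), only the 2 doses compared (0.0506) and without the 3 most deviating libraries (0.0638). Slc2a3, a carrier with high affinity for glucose, read 3.00 to 5.92 CPM over the 12 libraries and was not called.

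The hexokinases, which trap glucose in the cell by phosphorylating it, were each called at a different dose. Hk1 read 310, 332, 347 and 370 CPM at 0 µM, 372, 374, 343 and 383 at 2 µM, and 406, 378, 400 and 386 at 6 µM. It rose by 0.21 on the log2 scale at 6 µM (SE 0.049, adjusted p = 0.0088), with no overlap of libraries, and the call was lost without the 3 most deviating libraries (adjusted p = 0.0667). Hk2, the hexokinase that HIF is known to raise, read 237, 234, 254 and 269 CPM at 0 µM, 280, 276, 291 and 319 at 2 µM, and 277, 253, 282 and 246 at 6 µM. Its 2 µM libraries all lay above 0 µM, and those of 6 µM overlapped both. Hk2 rose by 0.23 at 2 µM (SE 0.055, adjusted p = 0.0294) and was 0.09 higher at 6 µM (adjusted p = 0.381), and 6 µM against 2 µM gave -0.14 (adjusted p = 0.273). The Hk2 call was lost without 0 µM replicate 1, 2 or 3 or 2 µM replicate 3 or 4, with adjusted p from 0.0534 to 0.155, and without the 3 most deviating libraries (0.0605).

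In the upper steps Gpi1 and Pfkp rose. Gpi1, the isomerase between glucose phosphate and fructose phosphate, read 757, 888, 850 and 872 CPM at 0 µM, 852, 846, 836 and 863 at 2 µM, and 945, 903, 976 and 930 at 6 µM. All 4 libraries at 6 µM lay above all others, with a log2 fold change of 0.16 (SE 0.042, adjusted p = 0.0226) against 0 µM and 0.14 (SE 0.042, adjusted p = 0.112) against 2 µM. The Gpi1 call was lost without 0 µM replicate 1 (adjusted p = 0.0508), 6 µM replicate 1 (0.0584) or 6 µM replicate 3 (0.0779), and without the 3 most deviating libraries (0.131).

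Phosphofructokinase catalyses the committed step, and of its 3 genes Pfkp, the platelet form, was called at both doses. Pfkp read 238, 251, 248 and 251 CPM at 0 µM, 277, 271, 277 and 282 at 2 µM, and 270, 268, 282 and 267 at 6 µM. No PFOS library reached down to the 0 µM range, and the log2 fold change was 0.17 (SE 0.038, adjusted p = 0.0201) at 2 µM and 0.14 (SE 0.038, adjusted p = 0.024) at 6 µM. The 2 µM call was lost without 2 µM replicate 4 (adjusted p = 0.094), and the 6 µM call without replicate 1 or 3 of 0 µM or of 6 µM (0.0516 to 0.0812) and without the 3 most deviating libraries (0.212). Of the stretches of 75 bases in its longest coding transcript 16.6% also occur in another gene, all of them in Pitrm1, which overlaps Pfkp on the opposite strand over 748 exon bases (5.58% of its exons). The counts of Pitrm1 came to 37.1% of those of Pfkp, and reads of the overlap cannot be told apart without a strand setting. The liver form Pfkl, at 537, 584 and 587 CPM on average at 0, 2 and 6 µM, had log2 fold changes of 0.12 (SE 0.048, adjusted p = 0.22) and 0.13 (SE 0.048, adjusted p = 0.106). The muscle form Pfkm averaged 139, 138 and 135 CPM and was not called. Pfkfb3, which makes the activator of phosphofructokinase, averaged 34.2, 35.7 and 36.0 CPM and was not called either.

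The aldolases, which split the bisphosphate sugar, had no call. Aldoa (ENSMUSG00000030695) averaged 1540, 1559 and 1623 CPM at 0, 2 and 6 µM, and its other row (ENSMUSG00000114515), which lies just upstream, 8.32, 10.5 and 8.88 CPM. Aldoc, a form best known from brain, read 4.47, 5.16, 3.67 and 5.28 CPM at 0 µM, 2.88, 3.29, 2.78 and 2.88 at 2 µM, and 4.06, 3.88, 3.03 and 5.62 at 6 µM. The 2 µM libraries all lay below 0 µM, the only member whose libraries were set apart in that direction, and 3.6% of all tested genes were. The log2 fold change of -0.65 (SE 0.19) had an adjusted p of 0.0781 by edgeR and 0.0259 by DESeq2. Tpi1, which interconverts the triose phosphates, averaged 1746, 1917 and 1903 CPM, with adjusted p-values of 0.073 at 2 µM and 0.0501 at 6 µM.

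Among the lower steps Pgk1, which makes the first ATP of the pathway, rose at both doses. It read 2751, 2957, 2842 and 2817 CPM at 0 µM, 3178, 3108, 2979 and 3128 at 2 µM, and 3105, 2981, 3240 and 3163 at 6 µM. Every PFOS library lay above every 0 µM library, although the lowest at each dose lay close to the highest at 0 µM. The log2 fold change was 0.12 (SE 0.033, adjusted p = 0.0429) at 2 µM and 0.14 (SE 0.033, adjusted p = 0.0105) at 6 µM. The 2 µM call was lost without any 1 of 8 libraries, all but 0 µM replicate 2, 2 µM replicate 3 and 6 µM replicates 2 and 3, with adjusted p from 0.0555 to 0.142. It was also lost with upper-quartile factors (0.0833), a mean count of at least 50 (0.0562), the replicate block (0.0823), only the 2 doses compared (0.0765) and without the 3 most deviating libraries (0.0595). Of its stretches of 75 bases 67.5% occur in 4 other genes, but the counts of those genes came to 0.361% of its own.

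Pgam1 and Eno1, which move and then remove groups to make phosphoenolpyruvate, were called at 6 µM only and close to the threshold. Pgam1 read 1018, 1164, 1134 and 1155 CPM at 0 µM, 1185, 1180, 1126 and 1171 at 2 µM, and 1252, 1157, 1253 and 1243 at 6 µM. Eno1 read 1657, 2003, 1827 and 1880 CPM at 0 µM, 1886, 1824, 1803 and 1761 at 2 µM, and 2066, 1898, 2107 and 2082 at 6 µM. In both genes 6 µM replicate 2 lay inside the 0 µM range and the other 6 µM libraries above it. Pgam1 rose by 0.13 on the log2 scale (SE 0.041, adjusted p = 0.0455) and Eno1 by 0.15 (SE 0.045, adjusted p = 0.0489). The Pgam1 call was lost without any 1 of 8 libraries, all but 0 µM replicates 2 and 4, 2 µM replicate 3 and 6 µM replicate 2 (adjusted p from 0.0522 to 0.121). The Eno1 call was lost without any 1 of 9, all but 0 µM replicates 2 and 4 and 6 µM replicate 2 (adjusted p from 0.05 to 0.132). Both calls were also lost with upper-quartile factors, a mean count of at least 50, the replicate block, only the 2 doses compared and without the 3 most deviating libraries, with adjusted p from 0.0508 to 0.0944 for Pgam1 and from 0.0535 to 0.0952 for Eno1.

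The last enzymes of the pathway had no call, while the RNA of a carrier of its product rose. Pkm, which makes pyruvate and is the most counted member, averaged 4868, 5042 and 5170 CPM, with adjusted p-values of 0.535 at 2 µM and 0.119 at 6 µM. Ldha, which reduces pyruvate to lactate and is a classical HIF target, averaged 2618, 2747 and 2758 CPM, with log2 fold changes of 0.07 (SE 0.036, adjusted p = 0.401) and 0.08 (SE 0.036, adjusted p = 0.23). Eno3, the muscle enolase, averaged 324, 301 and 319 CPM and Ldhb 20.3, 20.3 and 19.9 CPM, without a call.

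Slc16a1 (chr3:104638668-104658462), a carrier of lactate and other monocarboxylates, had the lowest adjusted p-value of the glycolytic rows at both doses. It read 228, 236, 237 and 220 CPM at 0 µM, 273, 262, 259 and 263 at 2 µM, and 275, 276, 284 and 276 at 6 µM. The 3 doses did not overlap at all, so every 6 µM library lay above every 2 µM library and every 2 µM library above every 0 µM library. It rose by 0.20 on the log2 scale at 2 µM (SE 0.038, adjusted p = 0.00762) and by 0.27 at 6 µM (SE 0.038, adjusted p = 6.61e-05), and 6 µM against 2 µM gave 0.07 (SE 0.038, adjusted p = 0.449). Slc16a3, the lactate carrier that HIF is known to raise, averaged 154, 160 and 164 CPM, with adjusted p-values of 0.709 and 0.369. Between 6 µM and 2 µM, 3 of 23 glycolytic rows (Gpi1, Eno1 and Slc16a1) had libraries set apart upwards, against 4.45% of all tested genes.

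**Figure D3:**
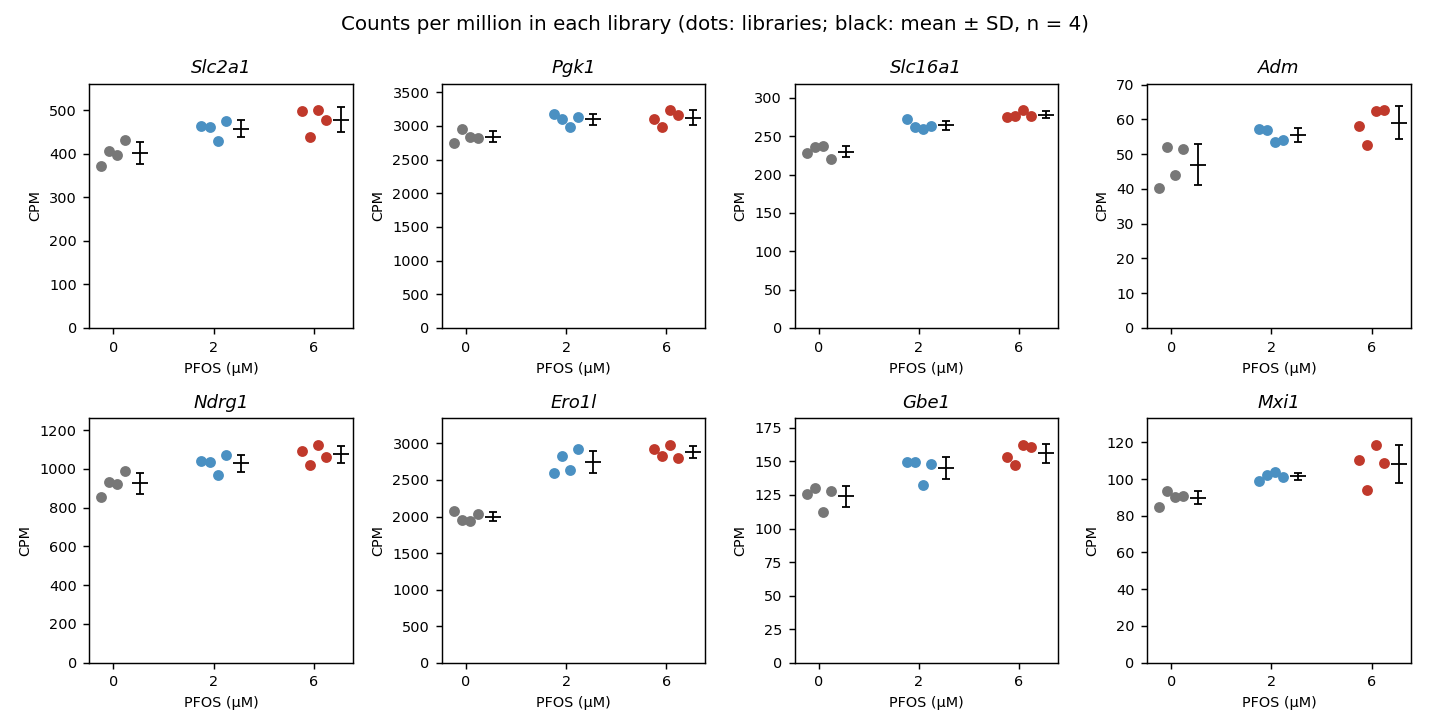
CPM (y axes from 0) in each library at 0, 2 and 6 µM PFOS (x axes) for the 8 members whose call at 6 µM held under all 21 alternatives; dots are libraries and black bars the mean ± SD (n = 4). All 6 µM libraries lie above all 0 µM libraries in each panel, and the step is largest in Ero1l, from 1938 to 2069 CPM at 0 µM to 2801 to 2985 CPM at 6 µM.

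The row of Gapdh, an enzyme often used as a reference gene, was low and scattered. It read 81.0, 97.0, 41.6 and 93.0 CPM at 0 µM, 45.6, 79.0, 49.9 and 97.7 at 2 µM, and 51.9, 102, 111 and 97.3 at 6 µM. The highest library was 2.68 times the lowest, the ranges of all 3 doses overlapped, and adjusted p-values were 0.777, 0.658 and 0.507 in the 3 comparisons. Without a count filter edgeR called the Gapdh row higher at 6 µM against 0 µM (log2 0.22, adjusted p = 0.00479) and against 2 µM (log2 0.41, adjusted p = 1.15e-09), and under none of the other 20 alternatives. Of the 75-base stretches of its longest coding transcript 80.3% occur in other genes, and those 121 genes held 990648 counts beside the 39306 of the Gapdh row. A processed pseudogene, Gm13394 (chr2:28933610-28934609), held 912412 of them and shares 63.2% of the stretches.

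Gm13394 and Gm4735 are not members and were chosen after their values were seen. Gm13394 read 1458, 1735, 1742 and 1739 CPM at 0 µM, 1780, 1822, 1819 and 1801 at 2 µM, and 2053, 1895, 2109 and 2003 at 6 µM. Its 3 doses did not overlap, and the log2 fold change was 0.11 (adjusted p = 0.242) at 2 µM and 0.27 (adjusted p = 0.000571) at 6 µM. Gapdh together with all rows that share its stretches averaged 1911 ± 98 CPM (SD, n = 4), 2023 ± 46 and 2267 ± 93 at 0, 2 and 6 µM. Which gene those reads came from was not tested.

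Eno1 also shares sequence, with 65.4% of its stretches found in other genes. The pseudogene Gm4735 holds 47.3% of them and averaged 760.5, 732 and 816 CPM, with a log2 fold change of 0.10 at 6 µM (adjusted p = 0.249). Eno1 together with the rows that share its stretches averaged 3274 ± 263 CPM, 3200 ± 116 and 3603 ± 162, and the 6 µM range (3378 to 3748) overlapped that of 0 µM (2928 to 3547). Shared stretches also made up 46.3% of Bnip3, 40.6% of Pgam1 and 19.6% of Pkm. Ero1l, Slc16a1, Gbe1, Adm, Vegfa, Hk2, P4ha1 and P4ha2 shared none.

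**Figure D4:**
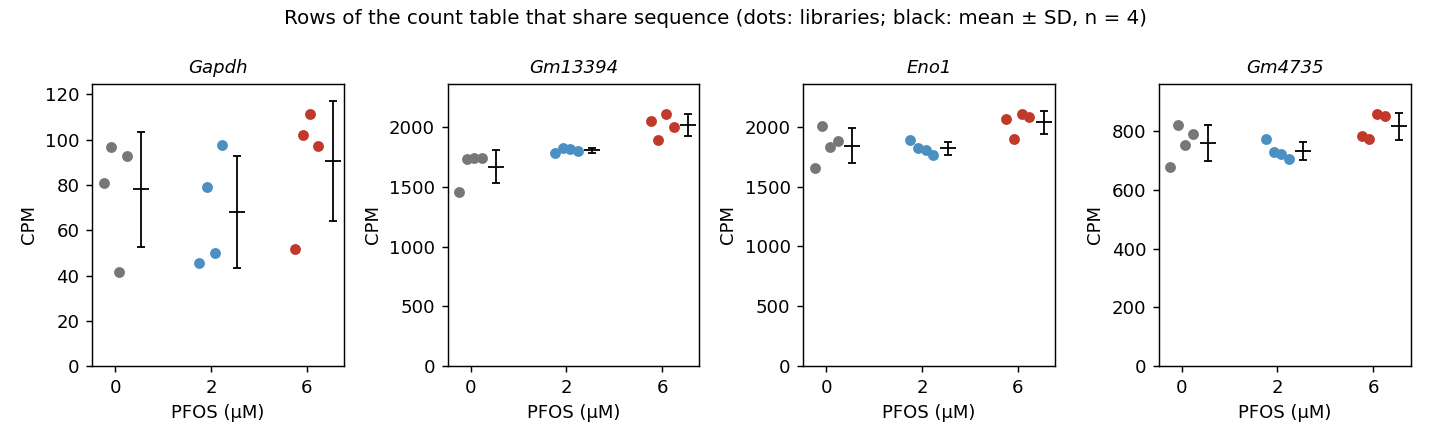
CPM (y axes from 0) in each library at 0, 2 and 6 µM PFOS (x axes) for Gapdh, Eno1 and the most counted row that shares sequence with each; dots are libraries and black bars the mean ± SD (n = 4). The Gapdh row lies between 41.6 and 111 CPM with overlapping ranges of the doses, while Gm13394 lies between 1458 and 2109 CPM and its 3 doses do not overlap.

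Among the HIF-type genes Ero1l changed most. Ero1l (ENSMUSG00000021831, chr14:45283087-45318771) makes the oxidase that passes electrons from newly folded proteins to oxygen in the endoplasmic reticulum, and it is raised by HIF as well as in the unfolded protein response. Its libraries read 2069, 1950, 1938 and 2032 CPM at 0 µM, 2598, 2823, 2635 and 2921 at 2 µM, and 2919, 2834, 2985 and 2801 at 6 µM. All PFOS libraries lay above all 0 µM libraries, and both PFOS doses overlapped. The fold change was 1.37 at 2 µM (log2 0.46, SE 0.037, adjusted p = 2.46e-07) and 1.44 at 6 µM (log2 0.53, SE 0.037, adjusted p = 2.95e-09). The step from 2 to 6 µM was 0.07 on the log2 scale (SE 0.037, adjusted p = 0.441).

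Of the members that regulate the response, Hif1a was called at 2 µM and the prolyl hydroxylases at neither dose. Hif1a, the oxygen-labile subunit, read 291, 271, 285 and 264 CPM at 0 µM, 318, 323, 316 and 316 at 2 µM, and 288, 329, 285 and 305 at 6 µM. The 2 µM libraries lay above 0 µM and close together, and 6 µM libraries overlapped both. Hif1a rose by 0.20 on the log2 scale at 2 µM (SE 0.046, adjusted p = 0.0224) and was 0.12 higher at 6 µM (SE 0.046, adjusted p = 0.112), with -0.08 between 6 and 2 µM (adjusted p = 0.525). Its call was lost without 0 µM replicate 2 (adjusted p = 0.07) or 4 (0.0588) or 2 µM replicate 2 (0.0736) or 4 (0.0731). Of the prolyl hydroxylases, which mark the HIF alpha subunit, Egln1 averaged 194, 220 and 220 CPM (adjusted p = 0.16 and 0.0804) and Egln3 279, 287 and 296 CPM (adjusted p = 0.772 and 0.331).

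Mxi1, which encodes a repressor that competes with MYC for its partner, read 84.9, 93.5, 90.1 and 90.8 CPM at 0 µM, 98.9, 102, 104 and 101 at 2 µM, and 110.5, 94.2, 119 and 109 at 6 µM. No PFOS library lay within the 0 µM range, and Mxi1 rose by 0.27 on the log2 scale at 6 µM (SE 0.057, adjusted p = 0.00452) after 0.18 at 2 µM (adjusted p = 0.121). Kdm3a, a histone demethylase, averaged 118, 114 and 118 CPM and had no call. Ddit4, an inhibitor of the mTOR kinase, averaged 615, 644 and 688 CPM, with an adjusted p of 0.0621 at 6 µM.

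Of the secreted factors, Vegfa was called at 2 µM and Adm at 6 µM, and neither between 6 and 2 µM. Vegfa, the growth factor of blood vessels, read 533, 571, 541 and 539 CPM at 0 µM, 586, 604, 597 and 620 at 2 µM, and 593, 575, 578 and 568 at 6 µM. The 2 µM libraries lay above the 0 µM range, and the lowest at 6 µM fell just inside it. Vegfa rose by 0.14 on the log2 scale at 2 µM (SE 0.035, adjusted p = 0.036) and was 0.08 higher at 6 µM (SE 0.035, adjusted p = 0.163), with -0.06 between 6 and 2 µM (adjusted p = 0.555). The Vegfa call was lost without 0 µM replicate 1, 3 or 4, 2 µM replicate 2, 3 or 4, or 6 µM replicate 3, with adjusted p from 0.052 to 0.157. It was also lost with upper-quartile factors (0.0712), the replicate block (0.0694), only the 2 doses compared (0.0747) and without the 3 most deviating libraries (0.0761).

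Adm, the precursor of the vasodilator adrenomedullin, read 40.2, 52.1, 43.9 and 51.5 CPM at 0 µM, 57.3, 57.0, 53.4 and 54.1 at 2 µM, and 58.0, 52.8, 62.5 and 62.8 at 6 µM. All PFOS libraries lay above 0 µM, with 6 µM replicate 2 only just so. Adm rose by 0.33 at 6 µM (SE 0.075, adjusted p = 0.0079) after 0.24 at 2 µM (SE 0.075, adjusted p = 0.107), and 6 against 2 µM had an adjusted p of 0.697.

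In glycogen and stress functions Gbe1 and Ndrg1 rose. Gbe1, the branching enzyme of glycogen synthesis, read 126, 130, 112 and 128 CPM at 0 µM, 149.8, 149.6, 133 and 148 at 2 µM, and 153, 148, 163 and 160.5 at 6 µM. Both PFOS doses lay above the 0 µM range, with 2 µM replicate 3 the lowest. Gbe1 rose by 0.23 on the log2 scale at 2 µM (SE 0.053, adjusted p = 0.0245) and by 0.33 at 6 µM (SE 0.053, adjusted p = 0.000313). The 2 µM call was lost without 0 µM replicate 3 or 2 µM replicate 1, 2 or 4, with adjusted p from 0.0679 to 0.101. Ndrg1, a gene of growth arrest and stress, read 857, 933, 923 and 989 CPM at 0 µM, 1042, 1035, 969 and 1071 at 2 µM, and 1093, 1018, 1125 and 1059 at 6 µM. At 2 µM 1 library lay inside the 0 µM range and at 6 µM none did. It rose by 0.21 at 6 µM (SE 0.043, adjusted p = 0.00279) after 0.15 at 2 µM (SE 0.043, adjusted p = 0.0653).

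Mitophagy receptors and collagen hydroxylases each had 1 call in a pair. Bnip3l read 364, 409, 387 and 379 CPM at 0 µM, 423, 437, 396 and 419 at 2 µM, and 425, 425, 443 and 427 at 6 µM. It rose by 0.16 on the log2 scale at 6 µM (SE 0.041, adjusted p = 0.0179), with no overlap, and the call was lost without 6 µM replicate 3 (adjusted p = 0.0592) and without the 3 most deviating libraries (0.186). Its relative Bnip3 averaged 266, 300.2 and 290 CPM, with adjusted p-values of 0.0545 at 2 µM and 0.12 at 6 µM.

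P4ha2, a subunit of the enzyme that hydroxylates collagen, read 254, 272, 263 and 281 CPM at 0 µM, 288, 278, 285 and 293 at 2 µM, and 309, 282, 313 and 296 at 6 µM. The 6 µM libraries all lay above 0 µM, by little in replicate 2. P4ha2 rose by 0.17 at 6 µM (SE 0.043, adjusted p = 0.0176), and the call was lost without 0 µM replicate 3 (adjusted p = 0.0552), 6 µM replicate 1 (0.0622) or 6 µM replicate 3 (0.0663), and without the 3 most deviating libraries (0.0727). P4ha1 averaged 594, 619 and 626 CPM without a call. Ankrd37, a small ankyrin protein gene, averaged 8.44, 9.85 and 9.54 CPM without a call, and its exons overlap those of Lrp2bp and Ufsp2 on the opposite strand, whose reads cannot be told apart without a strand setting.

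Libraries set apart between doses were frequent among the members. At 2 µM against 0 µM, 7 of 16 HIF-type genes and 4 of 23 glycolytic rows had all libraries above the 0 µM range, as did 4.77% of all tested genes. At 6 µM these counts were 7 of 16 and 6 of 23, beside 6.39% of all tested genes, and no member was set apart downwards, beside 6.15%. Between 6 µM and 2 µM no HIF-type gene was set apart in either direction, and 4.15% of all tested genes were set apart downwards.

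Genes of the same pathways that are not members were counted from lists. Of 27 other tested glycolysis and glucose genes 1 rose at 2 µM and 2 at 6 µM, beside 1.61% and 4.58% of all tested genes, with median log2 fold changes of -0.086 and 0.058. The called genes were Pgm2, a phosphoglucomutase relative, at 258 ± 14, 298 ± 10 and 299 ± 11 CPM (SD, n = 4; adjusted p = 0.0139 and 0.00322), and Gys1, the muscle glycogen synthase, at 205 ± 21, 230 ± 9.7 and 242 ± 15 CPM (adjusted p = 0.181 and 0.0151). The Pgm2 call at 2 µM ended without 2 µM replicate 4 (0.0639), and that of Gys1 without 6 µM replicate 1 and without the 3 most deviating libraries (up to 0.0595). The insulin-responsive glucose carrier Slc2a4 averaged 2.59, 1.91 and 1.51 CPM without a call.

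Of 14 tested regulators of HIF none rose at 2 µM by edgeR, beside 1.61% of all tested genes. At an unadjusted p under 0.05, 2 were higher and 1 lower at 2 µM, beside 1264 and 1001 of the 16038 tested genes. At 6 µM 2 regulators rose, beside 4.58% of all tested genes. These were Ep300, a histone acetyltransferase and coactivator, at 121 ± 8.4 CPM at 0 µM and 140 ± 6.8 at 6 µM (adjusted p = 0.0184), and Cul2, a scaffold of the ligase that degrades HIF, at 77.4 ± 2.3 and 85.6 ± 0.48 CPM (adjusted p = 0.0472). The Cul2 call was lost without any 1 of 11 libraries, all but 0 µM replicate 1, and under 5 other alternatives, with adjusted p up to 0.11. The Ep300 call was lost without 0 µM replicate 2 or 3 or 6 µM replicate 1 or 4, with adjusted p up to 0.0667. Vhl, which recognizes hydroxylated HIF, averaged 62.1, 66.8 and 68.9 CPM without a call. Epas1, the other main alpha subunit, averaged at most 0.015 CPM, below the filter.

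A further 36 tested targets of HIF gave 4 higher calls at 2 µM and 10 at 6 µM, and none lower. Of all tested genes 1.61% and 4.58% were higher. Between 6 and 2 µM 2 of these targets were higher and none lower, beside 0.561% of all tested genes higher. Median log2 fold changes of these targets, 0.087 and 0.12, lay between those of all genes and of the HIF-type members. Tfrc, the transferrin receptor, averaged 65.0 ± 4.6, 66.4 ± 4.7 and 92.2 ± 6.3 CPM (adjusted p = 1.93e-05 at 6 µM and 0.000198 between 6 and 2 µM). Hilpda, a lipid droplet protein, and Bhlhe40, a repressor, rose at 6 µM by 1.34 and 1.22 times (adjusted p = 0.000565 and 0.00152). Car9, a carbonic anhydrase much used as a sign of hypoxia, averaged 401, 437 and 439 CPM (adjusted p = 0.229 and 0.116), and Pdk1, which restrains pyruvate oxidation, 311, 341 and 310 CPM (adjusted p = 0.0885 and 0.958).

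Markers of another response moved in the same libraries. The unfolded protein response feeds the integrated stress response, which also includes inducers of Ero1l. Of 16 tested genes of the integrated stress response 8 rose at 2 µM, beside 1.61% of all tested genes. At 6 µM 6 rose and 1 fell, beside 4.58% and 3.66% of all tested genes. Between 6 and 2 µM 0 were higher and 2 lower, beside 0.561% and 0.549%. Ppp1r15a, which restarts translation, averaged 36.5 ± 3.4, 62.8 ± 8.9 and 50.8 ± 6.0 CPM, and Atf3, a stress transcription factor, 25.1 ± 2.7, 43.7 ± 5.2 and 39.2 ± 6.3 CPM. Shmt2, a mitochondrial serine enzyme, averaged 468 ± 17, 525 ± 14 and 543 ± 17 CPM, and Chac1, which degrades glutathione, fell at 6 µM from 176 ± 7.5 to 148 ± 9.2 CPM (adjusted p = 0.0023). Myotube markers fell beside these rises, with Myog at 7.15 ± 1.2 CPM at 0 µM and 4.06 ± 0.24 at 6 µM (adjusted p = 0.00172) and Acta1 at 23.2 ± 2.9 and 15.0 ± 2.3 CPM (adjusted p = 0.006). The part of stress genes and of the muscle state in the members' values was not tested.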

How the data were processed

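The deposited file was a single gene table of raw, unnormalized counts (whole numbers) for 12 libraries. HISAT2 was the aligner and GRCm39 the build per the submitters' processing notes. Versions, read filters, the annotation and how reads were counted, strand included, are details not given in the sources used here. Positions in the table matched GENCODE M21 (GRCm38) exactly for 53585 of 54495 shared genes (98.3%) and for 37 of the 39 members, and coordinates are therefore printed from the table and called GRCm38. Reads of overlapping genes cannot be told apart where strand is unknown.

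Each library took its dose from its title. The test was run in R 4.3.3 with edgeR 4.0.16: filterByExpr kept 16038 genes and left out 38494, TMM factors ran from 0.984 to 1.02, and the quasi-likelihood test compared the 3 dose means over all 12 libraries with 9 residual degrees of freedom. TMM factors were 1.012 to 1.021 at 0 µM, 0.9918 to 0.9996 at 2 µM and 0.9844 to 0.9922 at 6 µM. Genes with a count numbered 20470 to 21040, 20377 to 21171 and 19292 to 20110 per library at 0, 2 and 6 µM. The part of these differences in the calls was not tested. The biological coefficient of variation was 10.8%. P-values were adjusted by Benjamini-Hochberg over all tested genes, and a call means an adjusted p under 0.05. Standard errors came from the log2 fold change and its F value. The scripts were tested on simulated data. Alternatives were other scaling, filters and tools (DESeq2 1.42.0, limma-voom 3.58.1), a replicate block, only the 2 doses compared, leaving out each library, and, added after the data were seen, leaving out the 3 most deviating libraries. Replicate numbers do not pair samples in the labels.

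Members and gene lists were chosen with earlier results of these data known. All members were described, with values per library for those called in at least 1 comparison and for Hif1a, Gapdh, Pgk1, Vegfa and Slc2a1. From each other list at most the 4 called genes with the lowest adjusted p were chosen by rule, and the other genes of those lists that are named were chosen after their values were seen. A gene that the rule names is not reported here. Shared sequence was the share of 75-base stretches of a member's longest coding transcript that occur exactly in transcripts of other genes of GENCODE M21. Promoter windows are from RefSeq on GRCm38.p6.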

Additional observations from a re-analysis of the deposited data

Results flagged for a closer look

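In groups of 4 libraries, a library was picked out where its gap to the nearest other, divided by the whole range, exceeded Dixon's 95% critical value. Of 174 groups in 58 genes 16 were picked out, 8 of them in members, and chance picks out about 1 in 20 groups. Among members at 2 µM, Pfkm in replicate 4 was low at 131.7 CPM, Ldhb in replicate 2 was high at 23.0 CPM, and replicate 3 was low in Egln3 at 267.3 CPM and in Gbe1 at 132.7 CPM. At 6 µM replicate 2 was low in Pgam1 at 1157 CPM and in Ddit4 at 633.2 CPM, and replicate 3 was high in Slc16a1 at 284.4 CPM and in Bnip3l at 442.6 CPM. The Bnip3l call ended without that library, and the Slc16a1 call did not.

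Among the other genes, Pgm2 at 2 µM was low in replicate 3 at 282.7 CPM and Shmt2 high in replicate 4 at 546.5 CPM. At 6 µM Ep300 was low in replicate 2 at 129.6 CPM and Ppp1r15a in replicate 4 at 41.69 CPM. Cdh15 was low in 0 µM replicate 1 at 32.82 CPM. Mylpf was high in replicate 1 of both PFOS doses, at 7.028 CPM at 2 µM and 7.195 CPM at 6 µM, and Acta1 was low in 6 µM replicate 1 at 11.55 CPM.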

How the results depend on the processing

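Glycolytic calls at 2 µM, 5 in the test as described, were 3 with upper-quartile factors, 3 with the replicate block, 3 with only the 2 doses compared and 2 without the 3 most deviating libraries, and DESeq2 called 1 lower. The 4 HIF-type calls at 2 µM became 9 without a count filter and 9 with DESeq2. The 8 glycolytic calls at 6 µM became 3 without the 3 most deviating libraries. The glycolytic calls between 6 and 2 µM, 0 by edgeR, were 3 without a count filter, 2 with DESeq2, 2 with only those doses and 1 without the 3 most deviating libraries. Leaving out 1 library at a time gave 1 to 5 glycolytic and 1 to 6 HIF-type calls at 2 µM, 4 to 10 and 5 to 10 at 6 µM, and 0 to 2 glycolytic calls between 6 and 2 µM. Families with a leading share set apart numbered 1 to 3 at 2 µM, 1 to 3 at 6 µM and 2 to 3 between them. Such counts cannot fall when a library is left out.

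Single genes were followed where called in the test as described or in an alternative. The Gapdh row, not called, reversed at 6 µM to -0.0454 without the 3 most deviating libraries, whose adjusted p is 0.96. The cause of these changes was not tested. Over all genes, higher and lower calls at 2 µM, 258 and 119, were 438 and 193 without a filter and 524 and 227 with DESeq2. At 6 µM, 735 and 587 became 408 and 302 without the 3 most deviating libraries. Between 6 and 2 µM, 90 and 88 became 177 and 224 without a filter, 229 and 216 with DESeq2, 174 and 133 with only those doses, and 81 and 55 without the 3 most deviating libraries, and the block gave 69 and 54.

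Deviations of libraries with the same replicate number correlated at -0.028 to 0.0375, and those with other numbers at -0.021 to 0.0517, so the numbers show no pairing. Precision is limited by 4 libraries a dose and, for Slc2a3, Aldoc and Ankrd37, by low counts.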
